A study of Mus musculus with 12 samples.

Results

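Bckdhb is the mouse gene for the beta subunit of E1, the first enzyme of the branched-chain keto acid dehydrogenase complex, and its circular RNAs (circRNAs) in liver are described here. A circRNA is a closed loop, formed when splicing joins the end of 1 exon backwards to an exon start upstream of it. Reads across this back-splice junction measure it. The Bckdhb circRNAs were chosen by position, as every junction of the deposited table that lies inside the gene and has at least 1 end on an exon boundary of GENCODE M21. This rule found 14 of the 16445 junctions in the table. The gene itself was picked with the values of the treatment comparison known, so its values in that comparison are a description, and no test of them is used as support.

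The livers came from 12 mice, of a strain that the labels give as C57BL/8, in a model of toxic liver fibrosis. All 12 mice received the liver toxin carbon tetrachloride (CCl4), 10 µl of a 10% solution for each 10 g of mouse, over 8 weeks. The 6 Control mice received CCl4 alone. The 6 PZH mice also received PZH (Pien Tze Huang, a medicine of the Chinese tradition) daily at 25 mg/ml, from week 2 to week 8. Mice without CCl4 were not analysed here, so no value refers to healthy liver.

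The dehydrogenase complex sits in the mitochondrial matrix and carries out the irreversible, committed step in the breakdown of leucine, isoleucine and valine. Its E1 enzyme is built from alpha subunits (Bckdha) and beta subunits (Bckdhb), E2 is Dbt, and E3 is Dld, which other 2-oxo acid dehydrogenases share. A kinase (Bckdk) switches the complex off and a phosphatase (Ppm1k) switches it on. The complex is highly active in rodent liver, and inherited loss of E1 or E2 subunits causes maple syrup urine disease in people. A circRNA holds only some exons of the gene, and the linear Bckdhb mRNA was not measured in the values used here.

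The gene (ENSMUSG00000032263.14) covers chr9:83925145-84124240 on the plus strand of GRCm38, which is 199 kb. Its transcript with the longest coding sequence has 11 exons and 390 codons. The 14 junctions used the start of exon 2, 4, 6 or 7 or a place inside intron 3, and the end of exon 3, 6, 7, 8 or 9. None used a boundary of exon 1, 10 or 11. In 10 junctions both ends lay on exon boundaries, and in the other 4 the start lay within intron 3.

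The sequences across the 3 most abundant junctions show how 2 starts and 2 ends are combined. They come from the GENCODE M21 transcript sequence, 25 bases on each side, with the end of the last exon in lower case and the start of the first exon in capitals.
exons 2 to 6, chr9:83952524-83991822: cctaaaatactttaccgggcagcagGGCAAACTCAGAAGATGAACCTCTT
exons 4 to 8, chr9:83988776-84012619: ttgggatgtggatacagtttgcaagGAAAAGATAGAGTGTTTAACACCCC
exons 2 to 8, chr9:83952524-84012619: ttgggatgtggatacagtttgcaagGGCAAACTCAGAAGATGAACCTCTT
The third junction has the capitals of the first and the lower-case bases of the second.

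The 4 exons that give these ends are shown whole from the same transcript. Capitals mark the 25 bases that border a back-splice junction, at the start of exons 2 and 4 and at the end of exons 6 and 8.
exon 2, chr9:83952524-83952601: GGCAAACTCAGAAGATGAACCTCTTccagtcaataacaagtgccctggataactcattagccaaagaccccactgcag
exon 4, chr9:83988776-83988909: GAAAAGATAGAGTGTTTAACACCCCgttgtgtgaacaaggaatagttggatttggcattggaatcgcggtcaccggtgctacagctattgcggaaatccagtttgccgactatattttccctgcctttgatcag
exon 6, chr9:83991714-83991822: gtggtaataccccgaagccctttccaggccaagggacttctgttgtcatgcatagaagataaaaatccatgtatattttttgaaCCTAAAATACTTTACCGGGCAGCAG
exon 8, chr9:84012509-84012619: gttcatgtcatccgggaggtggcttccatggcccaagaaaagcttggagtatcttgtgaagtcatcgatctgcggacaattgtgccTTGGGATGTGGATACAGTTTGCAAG
Exon 2 has the start codon of 2 of the 3 coding transcripts of Bckdhb, at base 15 of the exon, inside the capitals. In the longest coding sequence translation starts in exon 1, and exons 2 to 9 are coding throughout.

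**Figure D1:**
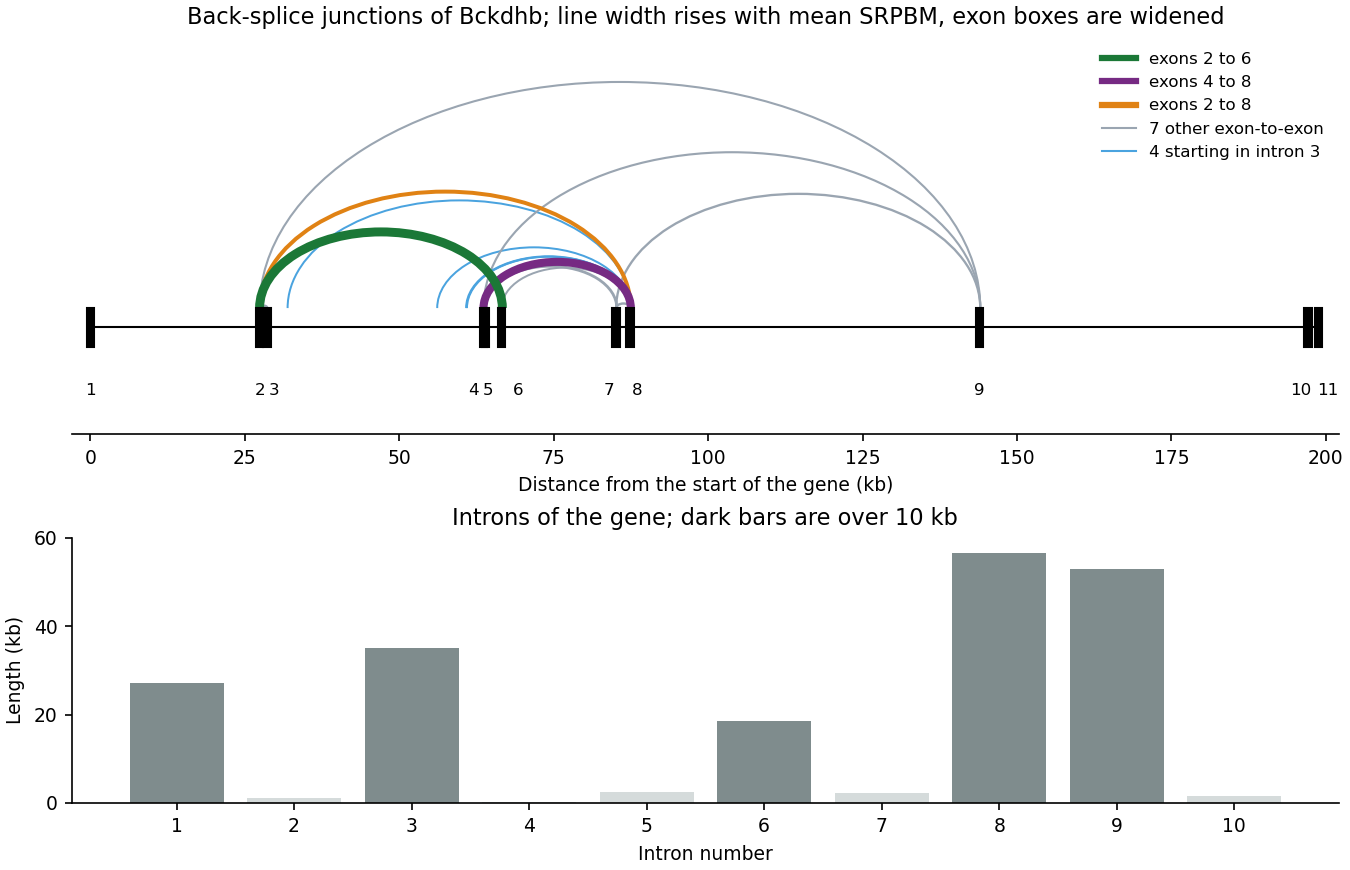
Upper plot: exons of Bckdhb (black boxes, widened to be visible) against distance from the start of the gene in kb, with an arc for each of the 14 back-splice junctions, wider where the mean signal over 12 libraries is higher. Lower plot: length in kb of the 10 introns; the 5 dark bars, introns 1, 3, 6, 8 and 9, are longer than 10 kb, and the 3 most abundant circles start after intron 1 or 3 and end before intron 6 or 8.

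The authors' unit, SRPBM, is read here as back-splice reads relative to a library's mapped reads, though its formula is not stated in the sources used. Across the series, summed circRNA signal was 28922 to 41080 SRPBM per library, over 3735 to 5510 detected circRNAs. The groups did not differ detectably in this total, with 36240 ± 3936 SRPBM (SD, n = 6) in PZH and 35196 ± 4751 (SD, n = 6) in Control (2-sided exact permutation test, p = 0.680). Correlations between libraries lay between 0.844 and 0.899 over the 66 pairs.

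In the level of its circRNAs Bckdhb was among the leading genes of the table. Its 14 junctions summed to a mean of 175 SRPBM over 12 libraries, which ranked 19 of 4733 host genes. In number of junctions 97.0% of host genes had fewer, and the median host had 2. Most of the Bckdhb signal came from few of its junctions. The 2 strongest held 91.3% of it on average per library, and the 3 strongest held 96.2%.

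The circle of exons 2 to 6 was the most abundant, and it ranked 36 in the table. It joins 5 exons, 546 bases when spliced, and averaged 89.4 SRPBM. Second came the circle of exons 4 to 8, also of 5 exons and of 608 bases, which averaged 69.4 SRPBM and ranked 55. The 2 circles overlap in exons 4, 5 and 6. Next came the circle of exons 2 to 8, which takes in the exons of both, 7 exons and 755 bases, and averaged 9.01 SRPBM, which ranked 725.

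The order of the first 2 circles varied between mice. In 9 of 12 libraries, 4 PZH and 5 Control, exons 2 to 6 lay above exons 4 to 8. The difference between them was 19.9 ± 25.0 SRPBM (SD, n = 12), so single libraries varied by more than the mean difference, which was not tested. Their ratio ran from 0.732 to 2.24. The next steps in the order were clearer: exons 4 to 8 lay above exons 2 to 8 in 12 of 12 libraries, by 60.4 ± 15.6 SRPBM (SD, n = 12), and exons 2 to 8 lay above the following junction, exons 4 to 7, in 11 of 12.

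These 3 circles were above 0 in all 12 libraries, and each of the other 11 junctions was at 0 in some. Together the 11 held 3.82% of the Bckdhb signal on average, between 0.508% and 6.41% per library. Below exons 4 to 7 the junctions were above 0 in too few libraries to be ordered. A 0 here means that the table lists the junction at 0, and at this depth it does not show that the circle was absent. The read counts behind the values are not known. If the smallest value of a library stands for 2 read pairs, the circle of exons 2 to 6 had the equivalent of 277 read pairs per library, that of exons 4 to 8 had 216 and that of exons 2 to 8 had 27.8, with 4.02 in 1 Control library. On this scale 56.8% to 63.8% of the values above 0 and up to 8.5 in a library lay near a whole number, from 0.05 below it to 0.1 above it, and the rest did not, so these are rough guides to depth and not counts.

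Exon boundaries were used unequally. Junctions that start at exon 2 held 56.9% of the Bckdhb signal, between 41.1% and 70.2% per library, and those that start at exon 4 held 41.5%. On the other side, the single junction that ends at exon 6 held 51.2% and those that end at exon 8 held 46.2%. Exon 8 was the end of 8 of the 14 junctions, or 57.1%. Among the 346 host genes with at least 10 junctions, the boundary in most frequent use took a median of 30.0% of junctions, and 12 of them exceeded Bckdhb. In the share of summed signal held by their 2 strongest junctions, 28 of these 346 genes exceeded Bckdhb, which had 91.0% against a median of 68.3%.

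The favoured boundaries border long introns, though other boundaries on long introns held little signal. On the genome, exons 2 to 6 lie between intron 1 of 27164 bases and intron 6 of 18431 bases. Exons 4 to 8 lie between intron 3 of 34994 bases and intron 8 of 56485 bases, the longest of the gene. Of the 15687 circRNAs of the table with an annotated intron on both sides, 86.3% had an upstream intron shorter than intron 1 and 90.5% had one shorter than intron 3. Likewise 85.9% had a downstream intron shorter than intron 6, and 97.2% one shorter than intron 8. The medians were 5.48 kb upstream and 4.42 kb downstream. Of the 10 Bckdhb junctions with both ends on exon boundaries, 8 had introns longer than 10 kb on both sides. These 8 reuse the starts of exons 2, 4 and 7, so they are not separate observations. The matching share over all circRNAs was not computed. Other boundaries on long introns were little used. The start of exon 7, after intron 6, held 0.96% of the Bckdhb signal. The end of exon 3, before intron 3, held 0.64%, and the end of exon 9, before intron 9 of 53042 bases, held 0.69%. No junction started at exon 9 or 10, which follow introns 8 and 9. The gene has many long introns, and whether intron length bears on the choice of ends was not tested. Intron sequence was not analysed here.

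In size the main circles were large for the table, where the median circRNA had 3 exons and 418 spliced bases and 27.4% had at least 5 exons. Their reading frames differed. The circle of exons 2 to 6 holds codons 64 to 246 of the longest coding sequence, and its length is a multiple of 3, as in 37.5% of the 15687 circRNAs above. Read on across its junction in the frame of the mRNA, its sequence met no stop codon. Exons 4 to 8 hold codons 113 to 315, and this frame met a stop 42 bases past the junction. Exons 2 to 8 hold codons 64 to 315, with a stop 15 bases past the junction. These are properties of the annotated sequence, and translation of any circle was not measured.

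The 4 junctions that start within intron 3 all ended at exon 8. Their starts were chr9:83957060, 83981279, 83985978 and 83986090, and the last 2 lie 112 bases apart, 2798 and 2686 bases before exon 4. The one starting at 83985978 was at 1.53, 1.24 and 2.00 SRPBM in PZH replicates 2, 4 and 6, at 1.35 in Control replicate 4, and at 0 elsewhere. Summed, the 4 were above 0 in 4 PZH and 2 Control libraries and took up to 5.92% of the signal ending at exon 8 in a PZH library and up to 1.84% in a Control library. They rest on few reads, and no difference between the groups can be read from them.

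The comparison of PZH with Control asks how the medicine relates to circRNA levels in a CCl4-treated liver. Bckdhb circRNAs were higher on average with PZH, and the ranges of the groups overlapped. The summed signal was 162 at the lowest, 205 at the median and 238 SRPBM at the highest in PZH, and 122, 139 and 195 in Control. In 5 of 6 PZH mice it lay above every Control value, and PZH replicate 5, at 162 SRPBM, lay below Control replicate 3. The means were 202 ± 24.1 SRPBM (SD, n = 6) and 147 ± 26.6 (SD, n = 6), a log2 fold change of 0.47 (SE 0.12, 95% interval 0.22 to 0.73) on the log2(SRPBM + 0.636) scale. In bulk liver, a change in the number of cells of a type and a change in RNA per cell cannot be told apart.

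Each of the 3 main circles had a higher mean in PZH, and for each the groups overlapped. For exons 2 to 6 the lowest, median and highest values were 81.3, 100.4 and 127 SRPBM in PZH mice, and 52.5, 77.0 and 104 in Control mice. The upper 3 PZH mice exceeded every Control mouse, while the lower 3 lay inside the Control range. The means were 102 ± 19.2 and 77.2 ± 20.6 SRPBM (SD, n = 6 each), with a log2 fold change of 0.41 (SE 0.17, 95% interval 0.07 to 0.76).

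For exons 4 to 8 these values were 67.0, 78.4 and 98.2 SRPBM in PZH mice, and 37.9, 56.9 and 78.2 in Control mice. Here too 3 PZH mice exceeded every Control mouse, and 4 Control mice lay below every PZH mouse. The means were 80.6 ± 12.1 and 58.3 ± 15.3 SRPBM (SD, n = 6 each), with a log2 fold change of 0.49 (SE 0.16, 95% interval 0.15 to 0.83).

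The circle of exons 2 to 8 showed the widest gap of the 3. Its lowest, median and highest values were 6.53, 13.8 and 15.4 SRPBM with PZH, and 1.17, 6.08 and 7.15 in Control mice. In 5 PZH mice it exceeded every Control mouse, and PZH replicate 5 lay just below Control replicate 4. The means were 12.7 ± 3.22 and 5.34 ± 2.12 SRPBM (SD, n = 6 each), with a log2 fold change of 1.24 (SE 0.37, 95% interval 0.48 to 2.01). The low end of Control was a single mouse, and the log2 fold change without it was 0.93.

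**Figure D2:**
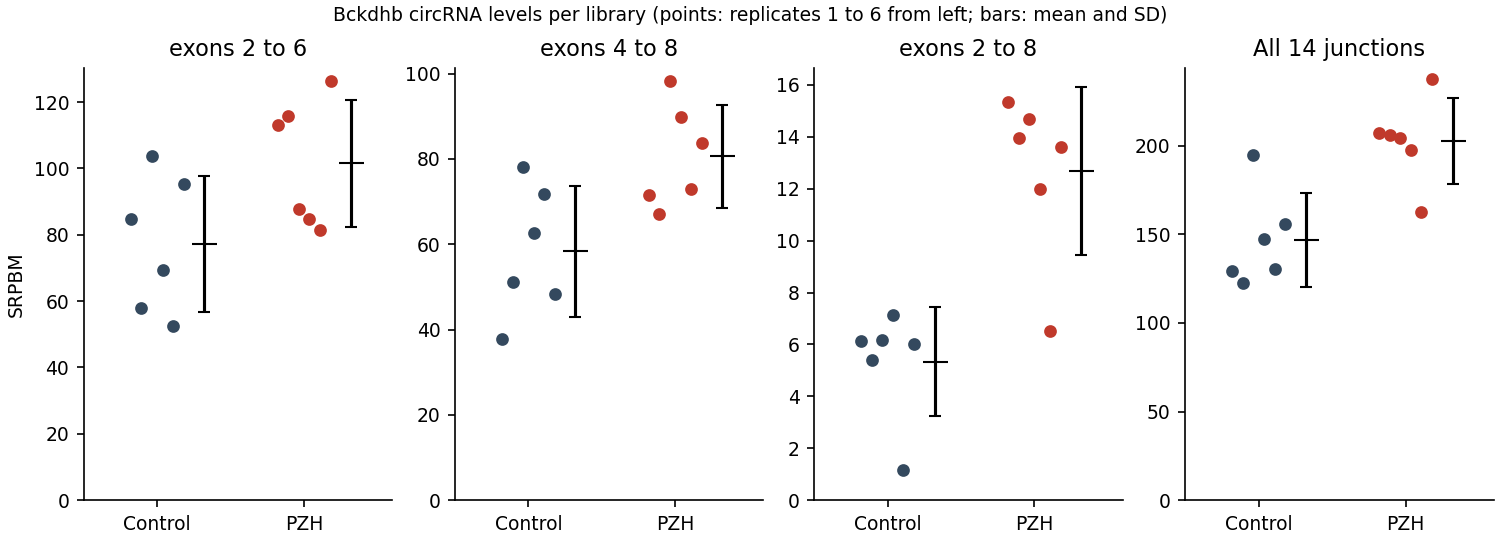
SRPBM of the 3 most abundant Bckdhb circles and of all 14 junctions summed (vertical axes, each from 0) in the 6 Control and 6 PZH libraries; points are libraries and bars are mean and SD. In the sum and in the circle of exons 2 to 8, 5 of 6 PZH libraries lie above all Control libraries.

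By limma with Benjamini-Hochberg adjustment over 3870 circRNAs, 0 of the 6 Bckdhb junctions tested passed an adjusted p of 0.05, while 3 were higher at an unadjusted p under 0.05. Over all circRNAs tested, 2 passed (0.0517%), both higher in PZH, and 4.55% were higher at the unadjusted threshold. None of the 6 had all PZH values above all Control values, or all below, against 0.491% and 0.181% of all circRNAs. A junction was tested when above 0 in at least 6 libraries, and nothing is read from these counts because the gene was chosen with this contrast known. Log2 fold changes were positive for 5 of the 6 and negative for 1, with a median of 0.47, and over all circRNAs tested 54.3% were positive, with a median of 0.06. Of 2205 host gene sums tested in the same way 0 passed, that of Bckdhb included, and 5.08% were higher and 3.13% lower at the unadjusted threshold.

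Whether Bckdhb circles were called turned on the filter on low values. These calls are not used as support, because the gene was chosen with this contrast known. With no filter, exons 2 to 6 (adjusted p = 0.0154, limma), exons 4 to 8 (adjusted p = 0.0281) and the host sum (adjusted p = 0.0454) passed, beside 0.182% of 16445 circRNAs and 0.127% of 4733 host sums. With only circRNAs above 0 in all 12 libraries, exons 2 to 8 passed (adjusted p = 0.0174) and the sum did not (adjusted p = 0.113), beside 0.918% of 1089 circRNAs and 0.106% of 945 host sums.

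The error of these differences depends on how the model treats variance. With the variance trend, which sets the expected spread by the level of a circRNA, the standard errors of the abundant circles were small. They were 0.17 for exons 2 to 6 and 0.16 for exons 4 to 8, against 0.28 and 0.27 without the trend. Without it, the 95% interval was -0.19 to 1.02 for exons 2 to 6, -0.09 to 1.08 for exons 4 to 8, 0.40 to 2.08 for exons 2 to 8 and 0.03 to 0.91 for the sum. The intervals of the first 2 then included 0. Without the trend, 1 expected spread served circRNAs of every level, weak ones included, so these intervals do not show the spread between mice alone. That spread, as the within-group SD of the log2 values, was 0.34 for exons 2 to 6 and 0.31 for exons 4 to 8. It was 0.63 for exons 2 to 8 and 0.21 for the sum. Intervals from this spread alone were not computed.

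**Figure D3:**
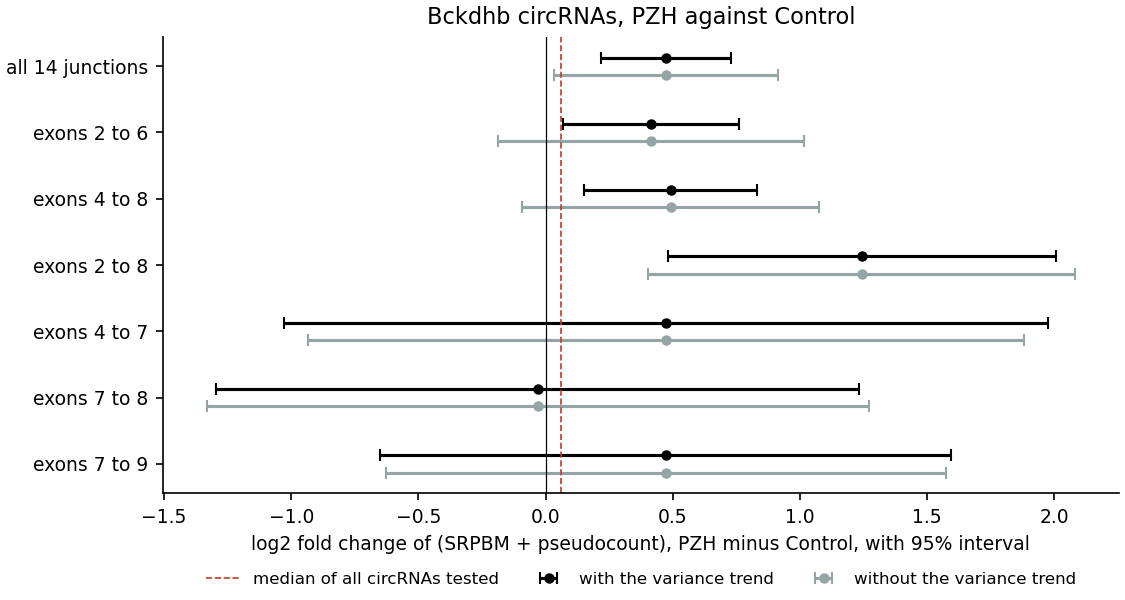
Log2 fold change of SRPBM plus the pseudocount, PZH minus Control (horizontal axis), with 95% intervals, for the summed Bckdhb signal and the 6 junctions tested, with the variance trend (black) and without it (grey); the dashed line is the median of all circRNAs tested, 0.06. The intervals of exons 4 to 7, 7 to 8 and 7 to 9 span 0 in both fits.

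The 3 weaker junctions that were tested showed no separation of the groups. Exons 4 to 7, which shares its start with exons 4 to 8, was above 0 in 5 PZH libraries (1.02 to 4.70 SRPBM) and 4 Control libraries (1.32 to 3.78), with a log2 fold change of 0.47 (SE 0.72). Exons 7 to 8 was above 0 in 3 libraries of each group, up to 3.02 in PZH and 3.54 in Control (log2 fold change -0.03, SE 0.61). Exons 7 to 9 was above 0 in 4 PZH libraries, up to 2.00 SRPBM, and in 2 Control libraries, up to 1.58 (log2 fold change 0.47, SE 0.54). In all 3 the standard error was larger than the difference.

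The 8 junctions not tested were above 0 in 1 to 5 libraries, at 0.657 to 3.87 SRPBM. Exons 2 to 3, the smallest circle from the exon 2 start with 147 bases, was at 1.21 SRPBM in PZH replicate 6 and at 1.14, 3.87, 2.95 and 3.43 in Control replicates 2, 3, 4 and 6. Exons 2 to 9 and exons 4 to 9, which reach past the longest intron, were both above 0 in PZH replicates 1 and 6 alone, at 1.70 and 1.67 SRPBM for the first and 1.36 and 2.92 for the second. Exons 6 to 8 appeared once, at 2.07 SRPBM in Control replicate 4. The remaining 4 are those that start within intron 3.

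As a share of Bckdhb signal, the means of the 2 main circles were close in the groups. Exons 2 to 6 took 49.99% ± 5.81 (SD, n = 6) in PZH and 52.4% ± 9.49 (SD, n = 6) in Control, and exons 4 to 8 took 40.2% ± 6.77 and 39.95% ± 9.25 (SD, n = 6 each). These differences were smaller than the spread between mice. Exons 2 to 8 took 6.20% ± 1.25 with PZH and 3.66% ± 1.49 without (SD, n = 6 each). In 5 PZH mice this share exceeded every Control mouse.

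**Figure D4:**
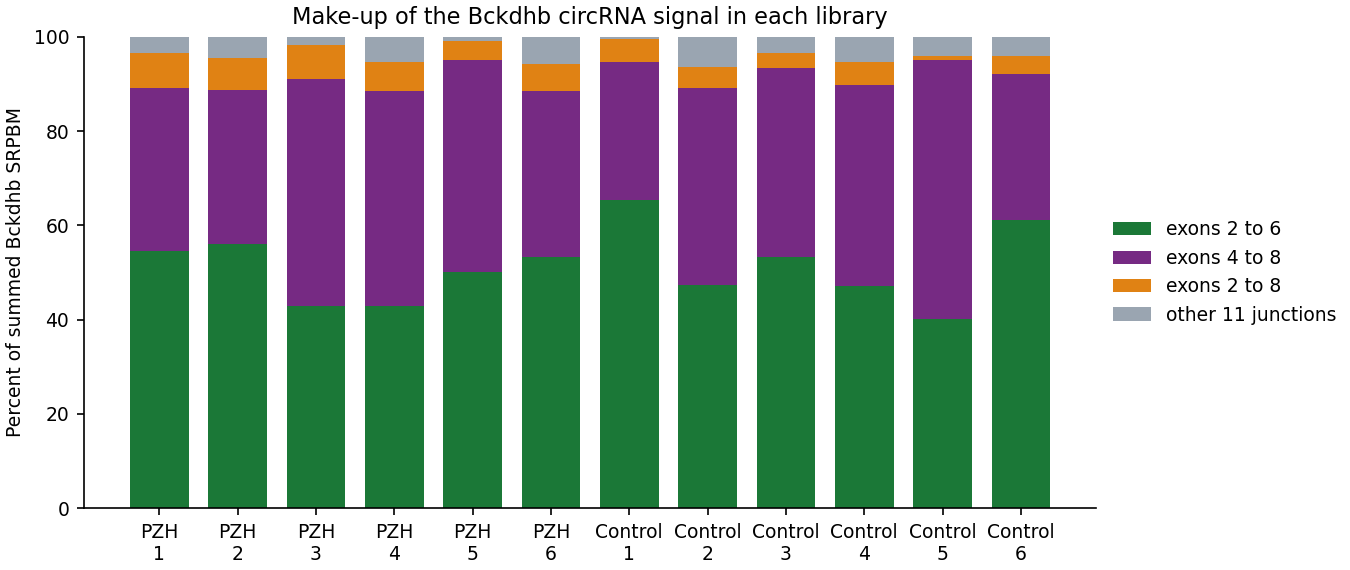
Percent of the summed Bckdhb SRPBM (vertical axis) held by the 3 main circles and by the other 11 junctions together in each of the 12 libraries. Exons 2 to 6 runs from 40.2% to 65.5% and exons 4 to 8 from 29.3% to 54.9%, with both extremes of each in Control libraries, and exons 2 to 8 from 0.899% to 7.41%.

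After the group means were removed, no relation between the first 2 circles passed a test over the 12 libraries (Pearson r = -0.20, permutation p = 0.588, Spearman rho = -0.21, permutation p = 0.562). Without the 2 libraries farthest from the median, r was -0.41. Exons 2 to 6 and exons 2 to 8, which share their start, had r = 0.63 (permutation p = 0.0157, adjusted over 3 pairs 0.0472) and rho = 0.59 (permutation p = 0.05004, adjusted 0.1501). Leaving out 2 libraries in the same way gave r = 0.43. Exons 4 to 8 and exons 2 to 8, which share their end, had r = -0.25 (permutation p = 0.595) and rho = -0.17, and r = -0.35 without 2 libraries. The values without 2 libraries were not tested. The pairs were chosen after the values were seen. Circles of 1 library also share its depth and scaling. With 944 other host genes, the summed Bckdhb signal had a median r of 0.27 and a 95th percentile of 0.65. Whether a shared start or end bears on these correlations was not tested.

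Relative to all circRNA in a library, Bckdhb made up 0.560% ± 0.0565 (SD, n = 6) in PZH and 0.419% ± 0.0659 (SD, n = 6) in Control. The lowest, at 0.499% in PZH, lay below the highest in Control, 0.517%. In 5 PZH mice the share exceeded every Control mouse, as in the unscaled sum.

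The rest of the pathway, listed together with subunits of related 2-oxo acid dehydrogenases, gives the setting of these values. Of 42 gene symbols listed, in which Mut and Mmut are names of 1 gene, 19 had a circRNA in the table, 57 in all. These summed to a mean of 196 SRPBM, against 175 for Bckdhb alone. In this sum Ogdh held 89.5 SRPBM, Dhtkd1 held 7.42 and Dlst held 4.42. These were listed as related subunits, so the sum is not that of the branched-chain pathway alone. The partner subunits of the complex had little: the 2 junctions of Bckdha reached at most 4.42 SRPBM, the 1 junction of Dld was at 1.19 in 1 Control library, and Dbt had none in the table. The kinase Bckdk, the phosphatase Ppm1k, the aminotransferases Bcat1 and Bcat2, and the leucine-branch genes Ivd and Mccc1 also had none. A gene without circRNAs may still be expressed, and these values hold nothing on mRNA.

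By limma with Benjamini-Hochberg adjustment, 0 of the 15 circRNAs tested from 8 of these genes passed, and the smallest adjusted p was 0.578. At an unadjusted p under 0.05, 0 were higher and 1 was lower, beside 4.55% and 3.00% over all circRNAs tested. In sign 9 were positive and 6 negative, with a median log2 fold change of 0.13 against 0.06 over all. The 1 lower was exons 4 to 5 of Acat1, the thiolase of the isoleucine branch, at 17.7 ± 1.91 SRPBM with PZH and 25.1 ± 4.99 without (SD, n = 6 each), a log2 fold change of -0.47 (SE 0.20).

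The strongest circles of the other 7 genes included the most abundant of all those listed. Exons 3 to 4 of Ogdh, the E1 of the related 2-oxoglutarate dehydrogenase, averaged 88.6 SRPBM in PZH and 87.7 in Control. Exons 2 to 4 of Hibadh, which oxidises 3-hydroxyisobutyrate in the valine branch, averaged 46.4 and 41.5. Exons 17 to 19 of Pcca, a subunit of propionyl-CoA carboxylase, reached 7.98 SRPBM in PZH and 8.30 in Control, and exons 8 to 10 of Dlst, the E2 of 2-oxoglutarate dehydrogenase, reached 7.13 and 8.14. Exons 2 to 5 of Dhtkd1, an E1 of lysine breakdown, ran from 3.71 to 10.5 SRPBM in PZH and from 2.47 to 9.53 in Control. Exons 2 to 6 of Mccc2, in leucine breakdown, reached 3.75 and 2.90, and exons 3 to 5 of Slc43a2, an amino acid transporter, reached 7.28 and 3.63. For each of these genes the ranges of PZH and Control overlapped.

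**Figure D5:**
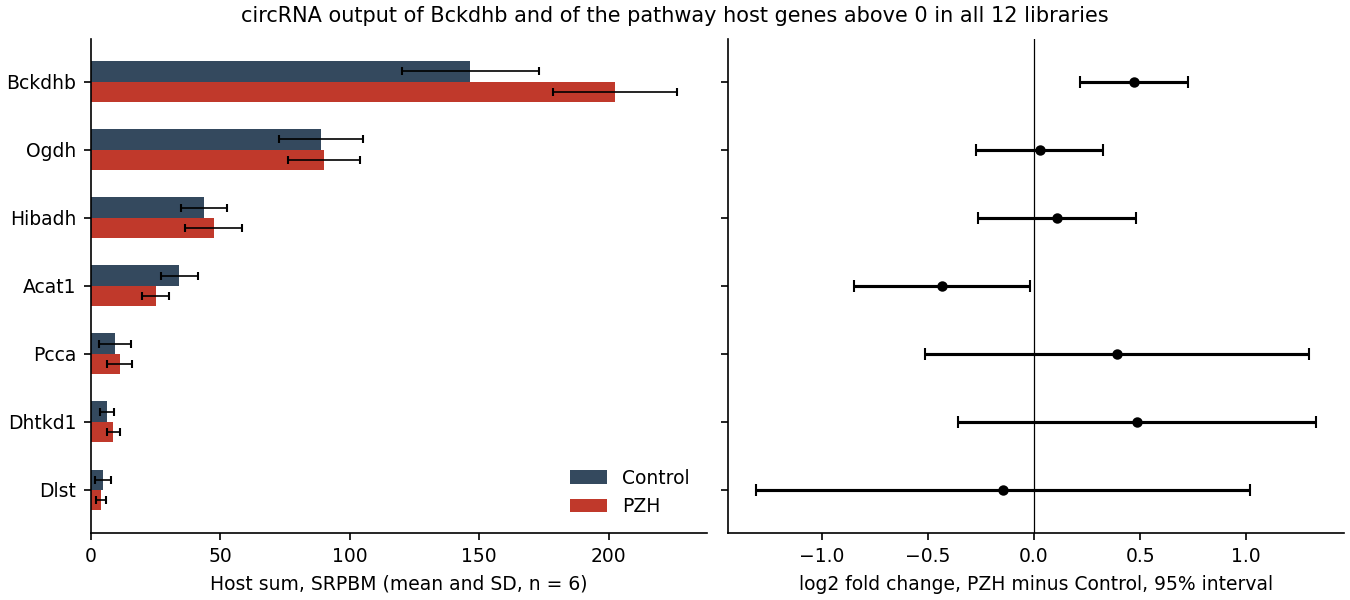
Left: summed circRNA signal in SRPBM of Bckdhb and of the 6 listed host genes, of the pathway or of related dehydrogenases, above 0 in all 12 libraries (bars: mean and SD, 6 Control and 6 PZH). Right: log2 fold change of these sums, PZH minus Control, with 95% intervals; Bckdhb is at 0.47, Ogdh at 0.03, Hibadh at 0.11 and Acat1 at -0.43.

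Marker host genes of liver cell types were summed as a description. Their lists were chosen with earlier results of these data known, so the sums are no check of the labelled tissue. Hepatocyte markers with circRNAs, 13 of 15, summed to 1595 to 2261 SRPBM in PZH and 1462 to 2330 in Control, overlapping throughout. Bckdhb signal was 9.11% to 12.9% of this sum in PZH and 6.18% to 10.7% in Control, with means of 10.9% ± 1.36 and 7.88% ± 1.54 (SD, n = 6 each). Stellate cell and fibroblast markers with circRNAs, 4 of 10 (Reln, Dlc1, Zeb2 and Hgf), summed to 10.1 to 22.0 SRPBM in PZH and 1.78 to 9.60 in Control, without overlap. Of single circRNAs tested, 0.491% lay wholly above in PZH and 0.181% wholly below, and the share for such sums was not computed. The sum is low, and no change of stellate cells is read from it. The defining genes Lrat, Pdgfrb, Col1a1, Col1a2, Col3a1 and Acta2 had none in the table. Endothelial markers, 5 of 6, ran from 2.39 to 14.9 in PZH and from 10.6 to 19.6 in Control, macrophage markers, 4 of 6, from 40.6 to 65.7 and 34.1 to 58.7, and Fgfr2, the 1 of 6 cholangiocyte markers present, from 62.1 to 90.9 and 51.3 to 86.3. The part of cell make-up in the Bckdhb values was not tested.

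The host genes whose summed signal varied most like that of Bckdhb were taken by Pearson correlation of log2 sums over the 12 libraries, group means removed, among 944 other genes above 0 in every library. They were Tmem56 (r = 0.94, mean 266 SRPBM), Cept1 (r = 0.92, 13.2), Dcun1d4 (r = 0.87, 63.0), Acaca (r = 0.84, 90.0) and Erc1 (r = 0.82, 31.4). Without removal of the group means r was 0.80, 0.73, 0.69, 0.85 and 0.50. The median over the 944 genes was 0.27 and the 95th percentile 0.65, and Bckdhb itself had r = 0.57 with the summed circRNA signal of a library. All these values share the libraries and their scaling, and are given as a description.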

How the data were processed

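Liver circRNA of 6 PZH and 6 Control mice was analysed from 1 deposited table, with groups taken from the labels. Its values are the authors' signal in SRPBM, per the file name and the labels. Trizol extraction and TruSeq RNA libraries are recorded per the labels' protocols, and Trim Galore, STAR and GRCm38 (mm10) per the submitters' processing notes. For tool versions, circRNA caller, filters and SRPBM formula, nothing is stated in the sources used.

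Junctions were assigned to GENCODE M21 genes and exons. Values were tested as log2(SRPBM + 0.636), the pseudocount being the median of the libraries' smallest values above 0, with limma 3.58.1 in R 4.3.3 (variance trend, group as the sole term, 2-sided, Benjamini-Hochberg) over junctions, or host gene sums, above 0 in at least 6 of 12 libraries. The code was tested on simulated log values drawn from normal distributions, without libraries set at 0. The fit of junctions at 0 in several libraries was thus not checked. If the smallest value of a library stands for 2 read pairs, a library held the equivalent of 80442 to 130487 read pairs across back-splice junctions, so junctions of a few SRPBM rest on few reads. Alternatives changed the pseudocount, filter, scaling, variance trend and block, and left out each library in turn. Named are all Bckdhb junctions, the strongest circRNA of each pathway gene tested, and the 5 host genes most like Bckdhb. The members and lists were chosen with earlier results of these data known. Sequences come from GENCODE M21 transcripts.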

Additional observations from a re-analysis of the deposited data

Results flagged for a closer look

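One value of a Bckdhb circle stood far from the others of its group. In Control replicate 5 the circle of exons 2 to 8 was at 1.17 SRPBM, and the nearest of the other 5 Control mice was at 5.40 SRPBM. This gap was 0.707 of the range of the group, beyond the 0.625 that Dixon's criterion allows for 6 samples. The same library had 52.5 SRPBM of exons 2 to 6, the lowest of all 12, and 71.7 of exons 4 to 8, inside the range of both groups. Of 28 groups of values examined this was the 1 so marked, and chance marks about 1 in 20. Without this library the log2 fold change of exons 2 to 8 was 0.93 in place of 1.24.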

How the results depend on the processing

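The log2 fold change of the summed Bckdhb signal kept its sign in 21 of 21 alternatives, between 0.42 and 0.56. Exons 2 to 6 ranged from 0.31 to 0.51 and exons 4 to 8 from 0.38 to 0.58. Exons 2 to 8 ranged from 0.78, with a pseudocount of 5, to 1.41, without PZH replicate 5. The weaker junctions moved more: exons 4 to 7 from 0.16 to 0.87, exons 7 to 9 from 0.10 to 1.16, and exons 7 to 8 from -0.22 to 0.15.

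Bckdhb junctions called numbered 0 in the reported analysis, 2 with no filter on low values (exons 2 to 6, adjusted p = 0.0154, and exons 4 to 8, adjusted p = 0.0281, limma) and 1 with circRNAs above 0 in all 12 libraries (exons 2 to 8, adjusted p = 0.0174, limma). The last tests fewer circRNAs. With no filter more were tested (16445 against 3870) at unchanged log2 fold changes of 0.41 and 0.49, and the cause was not tested. Leaving out 1 library gave 0 to 0. Nothing on the medicine is read from these calls, because the gene was chosen with this contrast known.

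Over all circRNAs, 2 higher calls became 19 with no filter, 8 with all 12 libraries above 0, and 1 without any 1 library (1 to 1), and 0 lower calls became 11, 2 and 0 to 2, and 2 with a pseudocount of 5. Host gene sums had 0 higher and 0 lower calls. Higher calls became 3 with no filter and 1 each with all 12 libraries above 0, a pseudocount of 5, median-of-ratios scaling and scaling by summed SRPBM, and 0 to 1 without 1 library. Lower calls became 3 with no filter, 1 with a pseudocount of 5, and 0 to 3 without 1 library. The causes were not tested. The difference in total circRNA signal was -211 SRPBM without Control replicate 2 (exact permutation p = 0.935), and -211 to 2190 over all libraries left out, against 1044.

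No pairing by equal replicate number was seen in these values. Over 6 pairs the correlation of deviations lay between -0.12 and 0.03, and 0 of 6 libraries matched their own number best. The labels do not say whether equal numbers mark a shared cage, batch or day. With the replicate number as a block there was 1 higher circRNA call and 1 higher and 1 lower host call. The Bckdhb sum then had a log2 fold change of 0.47 (SE 0.13, against 0.12). The SE was 0.15 for exons 2 to 6, 0.15 for exons 4 to 8 and 0.33 for exons 2 to 8, against 0.17, 0.16 and 0.37.

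The median log2 fold change of the circRNAs of the pathway list, related dehydrogenases included, ranged from -0.10, without Control replicate 2, to 0.15. In all 21 alternatives 0 were called. Depth limits the 11 weaker Bckdhb junctions, each listed at 0 in some libraries.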
